A study of Mus musculus with 8 samples.

Results

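The genes described here are 10 genes of insulin signalling and glucose transport, *Insr*, *Irs1*, *Irs2*, *Akt1*, *Akt2*, *Pik3r1*, *Tbc1d4*, *Slc2a1*, *Slc2a4* and *Pck1*, chosen by their function and found by their symbols among 33641 genes in the deposited counts. All 10 were in the files, and all 10 were among the 14851 that had enough counts for edgeR's filter and were tested. Poly(A) RNA was sequenced from interscapular brown adipose tissue (BAT) of C57BL/6 mice aged 28 weeks, to ask which transcripts depend on the RNA binding protein HuR in adipocytes. In *Adipo-HuR-/-* mice, a floxed HuR allele is deleted by a Cre recombinase under the adiponectin promoter, which is active in adipocytes, so that other cells of the tissue keep the allele. Control mice were littermates pooled over *wt/wt* carrying Cre, and *flox/flox* and *wt/flox* without it. By the labels, 3 libraries were control (A7, A8 and A12) while A24, A25, A26, A29 and A31 were *Adipo-HuR-/-* (n = 5), each taken as 1 animal.

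Insulin binds its receptor, a tyrosine kinase, which phosphorylates adaptor proteins of the IRS family. These recruit phosphoinositide 3-kinase, whose lipid product activates the kinase AKT, and AKT in turn releases a brake on the vesicles that carry the glucose transporter GLUT4 to the cell surface. Brown fat takes up much glucose in response to insulin and to cold, and its adipocytes also make the glycerol backbone of triglycerides from smaller precursors, a route in which *Pck1* encodes a key enzyme.

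Levels are given as CPM, each gene's counts relative to the library's total, scaled between libraries by edgeR's TMM method, with libraries in the order just given. *Elavl1*, which encodes HuR, was at 50.6, 48 and 49.2 CPM in the libraries labelled control and at 61.9, 47.3, 43.4, 61.3 and 61.2 CPM in those labelled *Adipo-HuR-/-*. The total of the targeted gene was therefore not lower under the knockout label (two-sided exact permutation test, p = 0.411, n = 3 and 5). Its longest transcript, *Elavl1-201*, held 25.2%, 34.4% and 20.6% of the gene's counts in the libraries labelled control and 6.69%, 9.22%, 11.1%, 9.05% and 11.7% in the others, so the groups did not overlap in this share (exact permutation test, p = 0.0179, the smallest that 56 assignments of the libraries can give). This minor transcript was looked at after its values were seen. The leading coding transcript, *Elavl1-204*, held 74.4%, 65.4% and 79.2% in the libraries labelled control and 93.3%, 89.5%, 88.5%, 90.4% and 88% in the others. With the leading transcript alone, the log2 fold change of *Elavl1* was 0.46, against 0.16 for the total. The deposited labels give 3 control and 5 knockout libraries, the legend of the study gives these numbers the other way round, and every direction below rests on the labels.

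The libraries also differed in ways that their labels do not name. Totals were lowest in A24 and A25, at 18264754 and 17558090 counts, and lay between 50673814 and 67498055 in the other 6. Among 1638 genes whose leading transcript was longer than 6000 bases, the median log2 CPM relative to the gene's mean was −0.24 in A8 and −0.44 in A24, against values from −0.03 to 0.24 in the other libraries. Genes with short transcripts moved the opposite way in A8 and A24. All 26 of 26 listed contractile genes of skeletal muscle were tested, and together they made up 4309 CPM of A7, 2660 of A8 and 466 of A31, but 66.7 of A12, 61 of A24, 46.8 of A25, 37.3 of A26 and 67.3 of A29. *Myh4*, the most abundant of them by mean CPM, was at 1048, 457 and 106 CPM in A7, A8 and A31 and at 0 in A25, A26 and A29. Skeletal muscle itself holds much *Slc2a4*, and the part of muscle RNA in the values below was not tested. In tissue made of several cell types, fewer cells of a type and less RNA per cell cannot be told apart.

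None of the 10 genes passed the threshold, which was an adjusted p of at most 0.05 and a fold change of at least 1.5 (quasi-likelihood test of edgeR, Benjamini-Hochberg adjustment over 14851 genes). None had an unadjusted p under 0.05 in this test, and DESeq2's Wald test called 0 of the 10 as well, with 1 at an unadjusted p under 0.05. Over all genes tested, 105 passed, or 0.707%, made up of 0.242% with higher and 0.465% with lower values under the *Adipo-HuR-/-* label, and DESeq2 called 5.54%. This count of 105 depended on single libraries, being 13 without A7, 15 without A25, 10 without A26, 14 without A29, 17 without A31, 86 without A24, 145 without A8 and 190 without A12. For 1 of the 10 genes, *Akt1*, the 2 groups were separate, as they were for 11.5% of all genes (5.37% higher and 6.09% lower). Of all genes, 7.64% were higher and 9.41% lower at an unadjusted p under 0.05. The median log2 fold change was 0.16 over the 10 genes and 0.00 over all genes tested. With libraries scaled by total counts alone, 3 of the 10 genes (*Akt1*, *Irs2* and *Slc2a4*, all fitted higher) and 2992 of all genes had an unadjusted p under 0.05, and 0 of the 10 passed the threshold. These medians were then 0.39 and 0.23, and the calls over all genes moved from 36 higher and 69 lower to 96 higher and 25 lower.

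**Figure D1:**
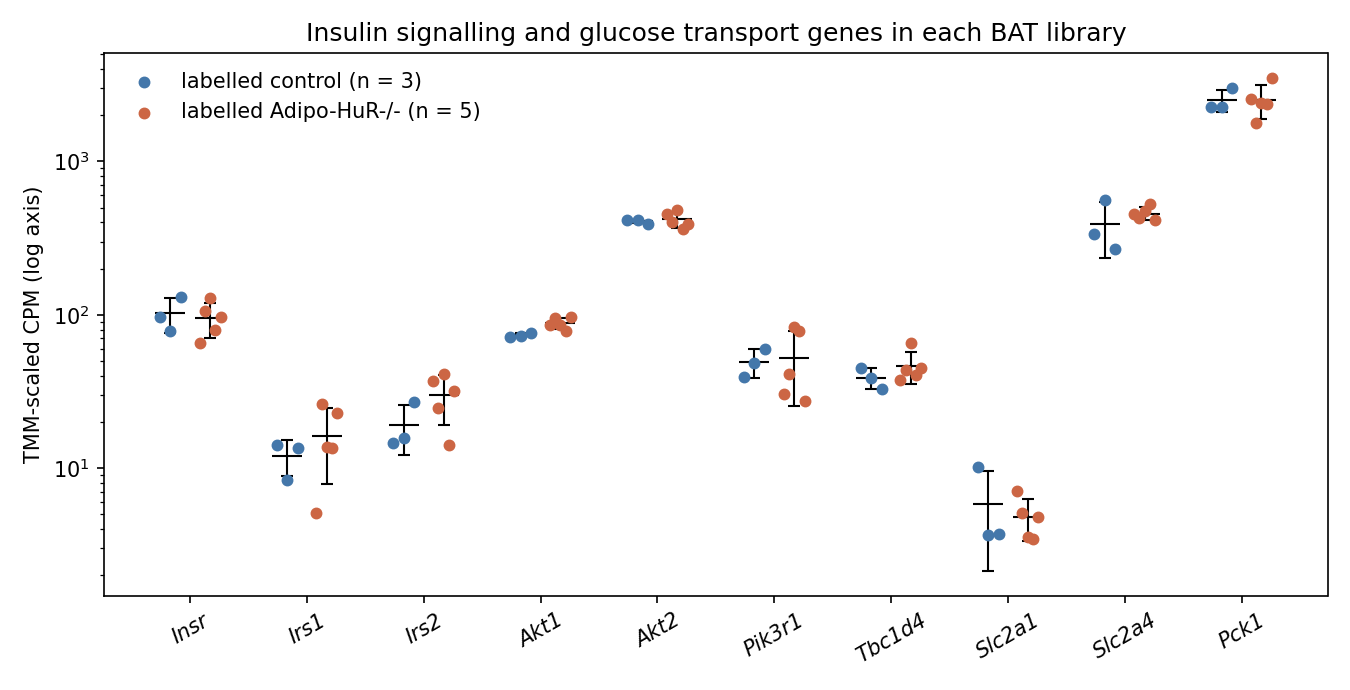
TMM-scaled CPM (log axis) of the 10 genes in each library, with 1 point per library, and the mean and SD of each group as a bar with whiskers (n = 3 labelled control, n = 5 labelled *Adipo-HuR-/-*). The groups overlap for every gene but *Akt1*, which lies between 71.6 and 75.7 in the libraries labelled control and between 78.2 and 96.5 in the others.

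*Insr* encodes the insulin receptor and lies on chromosome 8 at 3122061 to 3279617 of the minus strand (GRCm38), 1.01 megabases from *Elavl1* on the same chromosome. It was at 97.3, 78.8 and 130 CPM in the libraries labelled control and at 65.5, 106, 128, 79.3 and 96.1 CPM in those labelled *Adipo-HuR-/-*. The lowest value was in A24 and the next in A8, the libraries poorest in long transcripts, and the leading *Insr* transcript has 9355 bases, but the part of transcript length in this was not tested. The log2 fold change was −0.11 with a 95% interval from −0.63 to 0.42, and it was 0.11 with scaling by total counts, so no direction can be given.

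*Irs1* and *Irs2* encode the adaptors that link the receptor to phosphoinositide 3-kinase, and each had a single transcript in the files. *Irs1* (chromosome 1, 82233101 to 82291416) was at 14.1, 8.38 and 13.6 CPM in the libraries labelled control and at 5.08, 26, 13.7, 13.5 and 22.7 CPM in the others. Its values in the libraries labelled *Adipo-HuR-/-* enclosed the whole control range, with the lowest again in A24. *Irs2* (chromosome 8, 10984681 to 11008458) was at 14.5, 15.7 and 26.9 CPM in the libraries labelled control, and at 37.1, 24.8, 40.9, 14.2 and 31.8 CPM in the others. A29 lay below every control library and A25 below A12, while A24, A26 and A31 lay above all 3. The *Irs2* transcript has 6323 bases and A24 was poor in long transcripts, but the part of transcript length in these values was not tested. The log2 fold change of *Irs2*, 0.65 (95% interval −0.10 to 1.39), did not pass the test (adjusted p = 0.361, quasi-likelihood test of edgeR, Benjamini-Hochberg adjustment; 0.197 to 0.931 over the alternative settings). Over those settings the log2 fold change itself ran from 0.12, without A7, A8 and A31, to 0.98, without A12.

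*Pik3r1* encodes the regulatory subunit of phosphoinositide 3-kinase (chromosome 13, 101680563 to 101768217). It was at 39, 48.5 and 59.7 CPM in the libraries labelled control and at 30.3, 41.2, 82.8, 78 and 27.2 CPM in the others. The libraries labelled *Adipo-HuR-/-* held both the highest and the lowest values, A26 and A29 above every control library and A24 and A31 below. The SD was 26.6 CPM around a mean of 51.9 in that group and 10.4 around 49.1 in the control group (n = 5 and 3). A log2 fold change of 0.08 (95% interval −0.75 to 0.91) changed sign when A7, A26 or A29 was left out, to −0.06, −0.15 and −0.12.

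The kinases *Akt1* and *Akt2* differed in level more than either differed between the groups. *Akt1* (chromosome 12, 112653821 to 112674884) was at 71.6, 72.7 and 75.7 CPM in the libraries labelled control and at 85.5, 95.5, 85.3, 78.2 and 96.5 CPM in the others. All 5 libraries labelled *Adipo-HuR-/-* lay above all 3 control libraries, with A29 closest to them. The fold change was 1.2, with a 95% interval from 0.979 to 1.48, and it did not pass the test (adjusted p = 0.348, quasi-likelihood test of edgeR, Benjamini-Hochberg adjustment; 0.173 to 0.765 over the alternative settings). *Akt2*, the form most tied to insulin-stimulated glucose uptake (chromosome 7, 27591552 to 27640826), was at 412, 412 and 393 CPM in the libraries labelled control and at 457, 402, 479, 365 and 389 CPM in the others. Its fold change of 1.03 had an interval from 0.813 to 1.31, so that a change of 1.5 in either direction lay outside it.

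*Tbc1d4* encodes the AKT substrate that holds GLUT4 vesicles inside the cell until it is phosphorylated (chromosome 14, 101442360 to 101609191). It was at 45.2, 38.7 and 32.8 CPM in the libraries labelled control and at 37.7, 43.5, 65.1, 40.3 and 45 CPM in the others. A26 stood above the rest and the other 4 libraries with its label lay within the control range, and the log2 fold change was 0.25 (95% interval −0.19 to 0.70), or 0.10 without A26.

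*Slc2a4* encodes GLUT4, the insulin-regulated transporter of fat and muscle (chromosome 11, 69942539 to 69948188). It was at 336, 559 and 269 CPM in the libraries labelled control and at 451, 425, 473, 524 and 413 CPM in the others. All 5 of the latter lay between the control values, the SD being 152 CPM in the control group and 44.1 CPM in the other (n = 3 and 5). Among the control libraries, *Slc2a4* was lowest in A12, where the 26 contractile genes summed to 66.7 CPM, and highest in A8, where they summed to 2660, while A7, where they summed to 4309, was between them. Among the other 5, *Slc2a4* was lowest in A31, at 413 CPM, where the contractile genes summed to 466. In A24, A25, A26 and A29, where they summed to 37.3 to 67.3, *Slc2a4* was at 425 to 524 CPM. Its log2 fold change was 0.24 (95% interval −0.28 to 0.75), and the control library left out decided much of it: 0.03 without A12, 0.14 without A7 and 0.60 without A8. It was 0.49 with the contractile score as a covariate, 0.51 with scaling by total counts and 0.80 without A7, A8 and A31, which left 1 control library.

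*Slc2a1* encodes GLUT1, the transporter of basal glucose uptake (chromosome 4, 119108711 to 119137983). It was at 10.1, 3.65 and 3.72 CPM in the libraries labelled control and at 7.05, 5.08, 3.56, 3.47 and 4.76 CPM in the others. The highest value was in A7 alone, and the log2 fold change of −0.29 (95% interval −1.12 to 0.53) became 0.36 without it. *Pck1* (chromosome 2, 173153048 to 173159273) was at 2259, 2273 and 3005 CPM in the libraries labelled control and at 2557, 1786, 2421, 2361 and 3517 CPM in the others. The control mean was 2512 ± 427 CPM (SD, n = 3) and the other mean 2528 ± 626 CPM (SD, n = 5), giving a fold change of 1.01 and an interval from 0.696 to 1.46.

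Levels of different genes were compared as CPM per kilobase, each transcript's CPM being divided by its length and summed. On this scale *Pck1* was highest at 956 ± 197 (SD, n = 8), followed by *Slc2a4* at 181 ± 37.3 and *Akt2* at 150 ± 14.8. *Akt1* stood at 32.4 ± 4.09 and *Insr* at 12.9 ± 3.82 CPM per kilobase, and *Tbc1d4*, *Pik3r1*, *Irs2*, *Slc2a1* and *Irs1* were lower, between 9.39 and 1.6. The ranges over the 8 libraries were separate between *Pck1* and *Slc2a4*, between *Akt2* and *Akt1* and between *Akt1* and *Insr*. Other neighbours in this order overlapped, *Slc2a4* being above *Akt2* in 6 of 8 libraries and *Slc2a1* above *Irs1* in 3 of 8.

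Ratios between genes with the same role do not depend on how libraries are scaled, and 3 of them were compared on CPM per kilobase. The log2 ratio of *Akt2* to *Akt1* was 2.39, 2.37 and 2.28 in the libraries labelled control and 2.26, 1.97, 2.40, 2.10 and 1.92 in the others, so *Akt2* transcripts were 3.79 to 5.26 times as abundant. That of *Slc2a4* to *Slc2a1* ran from 5.27 in A7 to 7.42 in A29, or 38.5 to 172 times. The log2 ratio of *Irs2* to *Irs1* varied most, from 0.47 in A25 to 3.41 in A24. The *Irs1* transcript has 9144 bases and that of *Irs2* 6323, and A24 was the library poorest in long transcripts. The part of transcript length in this ratio was not tested. None of the 3 ratios differed between the groups beyond the spread between libraries (exact permutation, two-sided, p = 0.143 for *Akt2* to *Akt1*, 0.429 for *Slc2a4* to *Slc2a1* and 0.714 for *Irs2* to *Irs1*; adjusted over the 3 ratios 0.429, 0.643 and 0.714).

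The files divide each gene's counts among its annotated transcripts, and 8 of the 10 genes had more than 1. A single transcript held 94.9% to 99.7% of the counts of *Akt1*, 96% to 99.1% of *Insr*, 96.7% to 98.8% of *Pck1* and 87.5% to 94.3% of *Slc2a4*. *Pik3r1-202* held at least 85.9% of *Pik3r1*, and a shorter form, *Pik3r1-201*, reached 13.6% in A7 and no more than 3.63% in any other library. *Akt2-201* held 73% to 94.1% of *Akt2*.

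*Tbc1d4* and *Slc2a1* were split between transcripts. Over the 8 libraries together, *Tbc1d4-208* held the most counts of *Tbc1d4*. It is annotated as a retained intron over the 3′ part of the gene (101442368 to 101463223) and held 24.8%, 65.5% and 48.4% in the libraries labelled control and 78.3%, 18.7%, 25.8%, 53.5% and 51.9% in the others. Of the coding forms, *Tbc1d4-209* held the most counts. With 19 exons and 6483 bases, it held 15.3% in A8 and 1.33% in A24 and between 26.2% and 56.8% in the other 6, exceeding *Tbc1d4-208* in A7, A25 and A26. Another coding form, *Tbc1d4-205* with 5043 bases, held 17.1% in A8 and 19.1% in A24, within a range of 10.5% to 24.8% over the 8 libraries. For *Slc2a1*, the coding *Slc2a1-201* held 45.8%, 31.6% and 79.8% in the libraries labelled control and 17.1%, 60%, 61.6%, 57.7% and 55.8% in the others, and nearly all of the rest went to *Slc2a1-204*, annotated as a target of nonsense-mediated decay. *Tbc1d4-209* and *Slc2a1-201* each had the lowest share in A24 and the next lowest in A8, the libraries poorest in transcripts longer than 6000 bases. *Slc2a1-201* has 3260 bases, and the part of transcript length in these shares was not tested. The mean share of the leading transcript did not differ between the groups beyond the spread between libraries for any of the 8 genes (exact permutation, two-sided, the smallest p being 0.25 for *Slc2a4-201*).

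**Figure D2:**
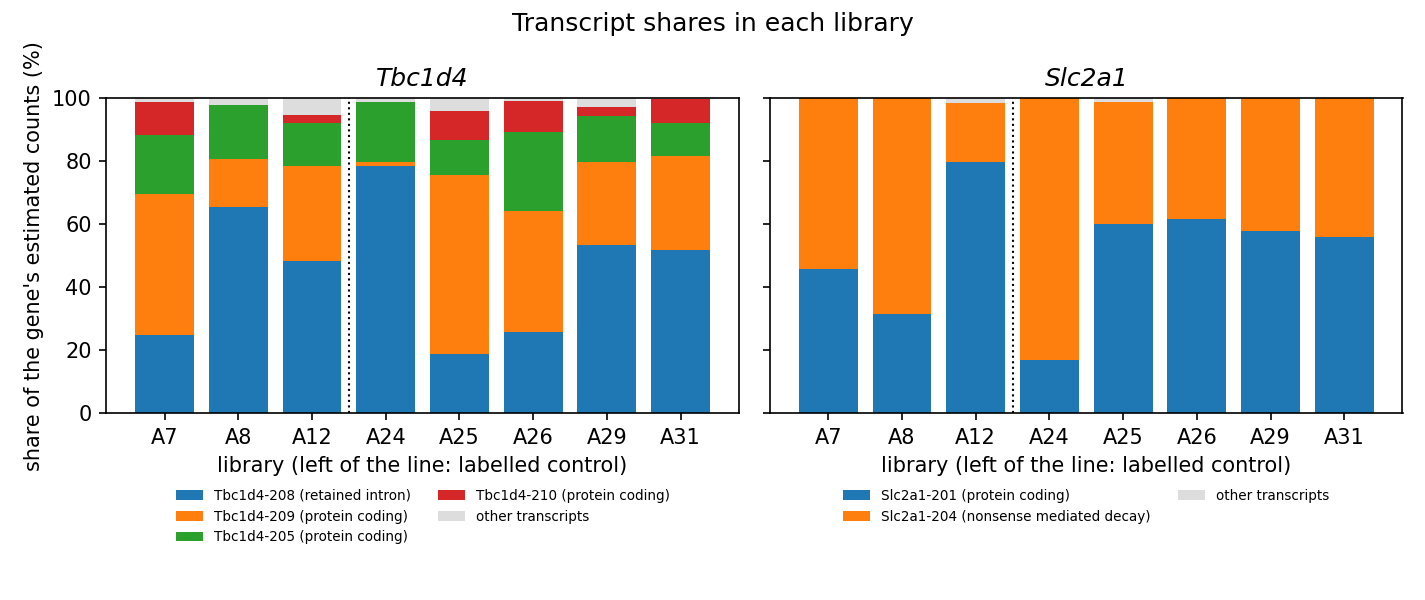
Share of the estimated counts (%) of *Tbc1d4* and *Slc2a1* given to each transcript with at least 10% in any library, stacked, with 1 bar per library and the libraries labelled control left of the dotted line. The coding transcripts *Tbc1d4-209* and *Slc2a1-201* have their smallest shares, 1.33% and 17.1%, in A24.

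HuR binds U-rich and AU-rich stretches, mostly in 3′UTRs and introns. The AU-rich letters ATTTA were counted on the transcript strand of the 3′UTR of each gene's leading coding transcript (GENCODE M21), with overlapping matches included, as was the longer TTATTTATT, which contains the shorter motif. U-rich stretches without these letters were not counted. A match to ATTTA was in 9 of the 10 3′UTRs and in 68.6% of those of all tested genes with a 3′UTR of at least 100 bases, and among genes whose 3′UTR was within 20% of the length of each of the 10 it was in 56.7% (*Pck1*) to 98.8% (*Irs1*). The 3′UTR without a match was that of *Akt2-201* with 1312 bases, where 80.1% of 1934 genes of like length had one. *Irs2* had the most per length, 7 matches in 2329 bases or 3.01 per kilobase, against a median of 1.53 for genes of like length. TTATTTATT was in 0 of the 10, and in 7.68% of the 13358 tested genes with a 3′UTR of at least 100 bases. These are matches of letters and do not mark sites bound by HuR.

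The pathway around these genes was described with 6 lists of 93 other genes, of which 87 were tested. Past the threshold were 2 of the 87, *Ptprf* among the higher and *Myo5a* among the lower genes, against 0.707% of all genes tested. At an unadjusted p under 0.05 there were 4 higher and 13 lower of the 87, against 7.64% higher and 9.41% lower of all genes. The median log2 fold change was −0.08, and 36 genes were fitted higher and 51 lower, which became 62 and 25 with scaling by total counts.

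*Ptprf* encodes the receptor tyrosine phosphatase LAR, which acts on the insulin receptor. It was at 1.07, 0.709 and 1.21 CPM in the libraries labelled control and at 3.05, 3.08, 3.07, 2.77 and 3.41 CPM in the others. All 5 of the latter exceeded all 3 control libraries, at a low level, with a fold change of 3.07 and a 95% interval from 2.06 to 4.57 (adjusted p = 0.0301, quasi-likelihood test of edgeR, Benjamini-Hochberg adjustment; 7.44e-08 to 0.298 over the alternative settings).

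*Myo5a* encodes a myosin motor that carries vesicles, among them those with GLUT4. It was at 150, 108 and 163 CPM in the libraries labelled control and at 47.2, 75.2, 68.4, 56.6 and 59.9 CPM in the others. The groups did not overlap, and the highest value was in A12. The log2 fold change was −1.19 with a 95% interval from −1.61 to −0.77 (adjusted p = 0.0297, quasi-likelihood test of edgeR, Benjamini-Hochberg adjustment; 2.52e-06 to 0.148 over the alternative settings). Both calls were lost without A7, A25, A26, A29 or A31, where the adjusted p of this test was 0.106, 0.0676, 0.0706, 0.0821 and 0.0672 for *Myo5a* and 0.106, 0.0913, 0.0784, 0.068 and 0.0712 for *Ptprf*, and with the contractile score as a covariate, at 0.111 and 0.166. With that covariate the log2 fold changes were −1.32 for *Myo5a* and 1.54 for *Ptprf*, against −1.19 and 1.62 without it. With scaling by total counts the call of *Myo5a* was lost as well, at an adjusted p of 0.0882 in the same test, while *Sh2b2* passed the threshold at 0.0493. The fitted directions of *Myo5a* and *Ptprf* were kept under all of these. The 3′UTR of *Ptprf-201*, of 1608 bases, held 0 matches to TTATTTATT, and 8.19% of genes with 3′UTRs of like length had one. The 3′UTR of *Myo5a-201*, of 5695 bases, held 1 match to TTATTTATT, and 23.3% of genes with 3′UTRs of like length had such a match. It is printed here in capitals within its context, as the longer motif that the 10 genes lacked.
*Myo5a* 3′UTR, bases 1915 to 1923 in capitals: gcagtacatTTATTTATTtgcaggacc

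**Figure D3:**
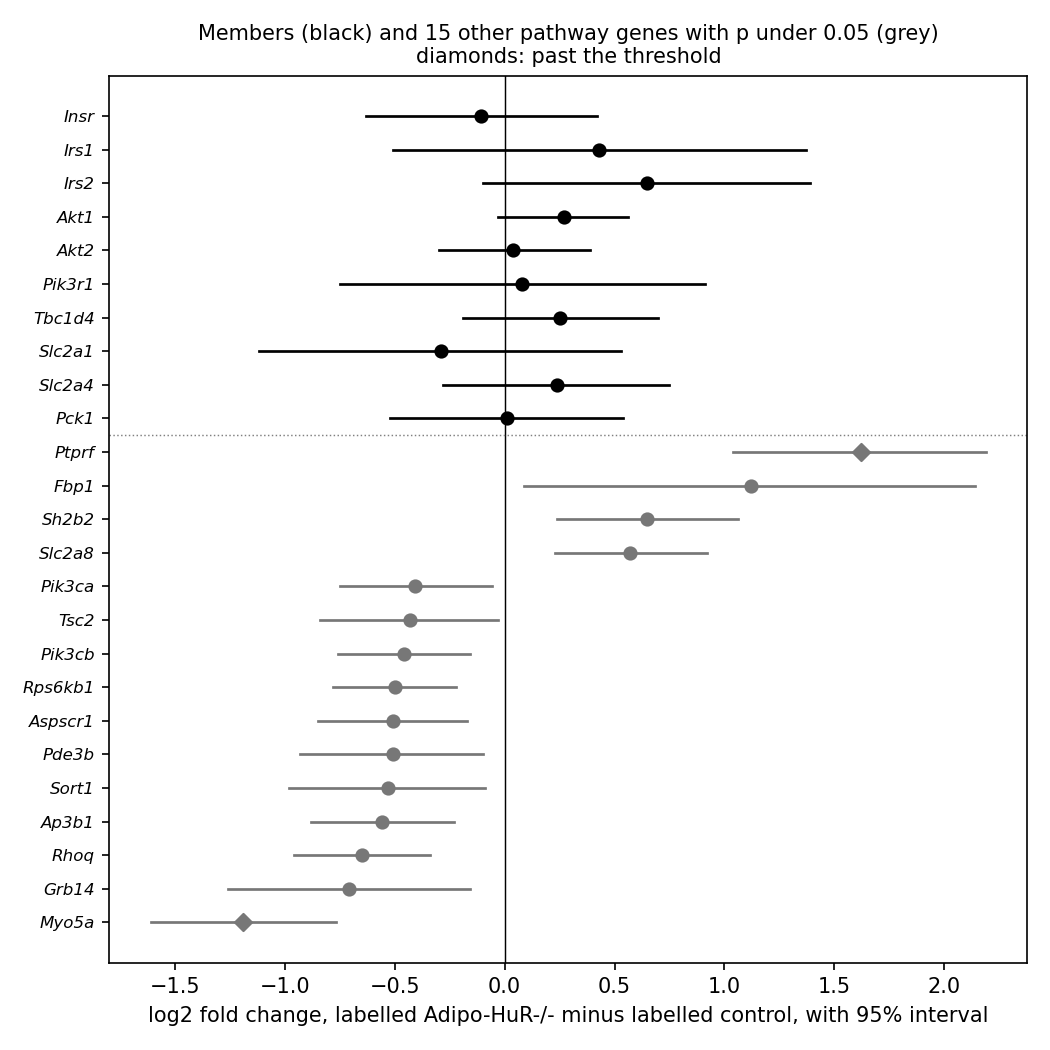
Log2 fold change with its 95% interval (libraries labelled *Adipo-HuR-/-* minus control, n = 5 and 3) for the 10 genes in black and for 15 of the 17 other pathway genes with an unadjusted p under 0.05 in grey, with diamonds for genes past the threshold. The intervals of all 10 genes include 0, and *Ptprf* at 1.62 and *Myo5a* at −1.19 are the diamonds.

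Among GLUT4 vesicle traffic genes, 3 of 20 were fitted higher and 17 lower, against 7438 and 7413 of all genes tested. The median log2 fold change of these 20 was −0.21. With scaling by total counts, 10 were fitted higher and 10 lower, with a median of 0.01. Beside *Myo5a*, the genes with an unadjusted p under 0.05 were *Rhoq*, *Sort1*, *Aspscr1* and *Ap3b1*, and none of these passed the threshold. These 5 of 20 genes all had lower fitted values, as had 9.41% of all genes at this p. The groups were separate with lower values in 4 of the 20, and in 6.09% of all genes. *Rhoq*, a small GTPase known as TC10 that acts in GLUT4 translocation, was at 207, 180 and 222 CPM in the libraries labelled control and at 129, 122, 147, 122 and 128 CPM in the others, without overlap. Its log2 fold change was −0.65 (adjusted p = 0.0666, quasi-likelihood test of edgeR, Benjamini-Hochberg adjustment; 0.000183 to 0.305 over the alternative settings). *Sort1*, encoding the sorting receptor of GLUT4 vesicles, and *Aspscr1*, encoding the tether TUG, had log2 fold changes of −0.53 and −0.51. *Myo1c* and *Sort1* were the most abundant of the list by CPM, and *Myo1c* had a log2 fold change of −0.08.

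In the phosphoinositide 3-kinase and AKT arm, 6 of 22 genes were fitted higher and 16 lower, with a median of −0.14, which became 15 and 7 and a median of 0.08 with scaling by total counts. No gene of this list passed the threshold, and 5 of the 22 had an unadjusted p under 0.05, all with lower fitted values, as had 9.41% of all genes. The catalytic subunits *Pik3ca* and *Pik3cb* had log2 fold changes of −0.41 and −0.46, and *Rps6kb1*, encoding S6 kinase, of −0.50, and in these 3 of 22 genes the groups were separate, as they were with lower values in 6.09% of all genes. *Pde3b*, the phosphodiesterase through which insulin restrains lipolysis, was at 247, 186 and 286 CPM in the libraries labelled control and at 141, 167, 195, 146 and 191 CPM in the others. Its groups overlapped, A26 and A31 lying above A8, and its log2 fold change was −0.51, while *Tsc2* and *Mtor* had −0.43 and −0.17.

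Of the 12 tested genes for the receptor and its adaptors, 0 passed the threshold. *Sh2b2*, an adaptor bound by the activated receptor, was at 139, 176 and 104 CPM in the libraries labelled control and at 229, 220, 214, 232 and 195 CPM in the others, without overlap. Its log2 fold change was 0.65. Among the 5 pathway genes that DESeq2's Wald test called were *Rhoq* and *Sh2b2*, beside *Ptprf* and *Myo5a*.

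Among the 15 brakes on insulin signalling, 1 passed the threshold, and the receptor inhibitor *Grb14* had a log2 fold change of −0.71 without passing it. *Inppl1* and *Ppp2ca*, the most abundant of this list by CPM, had values of 0.32 and 0.06. Of the other sugar transporters, 7 of 10 were tested and 0 passed, *Slc2a8* being at 11.4, 15 and 11 CPM in the libraries labelled control and at 20.8, 19.1, 17.1, 18.6 and 17.2 CPM in the others. Its groups did not overlap, whereas *Slc2a5*, the fructose transporter, ranged from 4.42 CPM in A31 to 69.1 CPM in A7. Of 11 tested genes for glyceroneogenesis and gluconeogenesis 0 passed. *Gpd1* and *Pdk4* had log2 fold changes of 0.09 and −0.15, and *Fbp1*, at 4.12 CPM or less in every library, had 1.12.

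Other cell types were followed by marker lists. Among brown adipocyte markers, *Fabp4* had the highest mean CPM in both groups, and *Prdm16* lay between 15.1 and 37.3 CPM. *Prdm16* was the only 1 of the 12 with an unadjusted p under 0.05, against 7.64% higher and 9.41% lower of all genes. Its log2 fold change was 0.60 (adjusted p = 0.218, quasi-likelihood test of edgeR, Benjamini-Hochberg adjustment), with overlapping groups. *Ucp1* was at 4843, 11438 and 9483 CPM in the libraries labelled control and at 10703, 4251, 7636, 7213 and 9475 CPM in the others. Endothelial markers were fitted higher in 8 of 8 cases (median log2 fold change 0.21), hepatocyte markers in 3 of 3 (1.11) and erythroid markers lower in 6 of 6 (−0.43), and these directions were the same with scaling by total counts. Macrophage markers were fitted lower in 7 of 8 cases and brown adipocyte markers in 8 of 12, which became 3 of 8 and 1 of 12 with that scaling. Of the 6 listed hepatocyte markers, only 3 had enough counts to be tested. The 6 summed to 3.84 CPM in A7 and 90.6 CPM in A26, where *Cyp2e1* alone was at 3.32 and 89.2 CPM. In edgeR's quasi-likelihood test, 0 of the 12 brown adipocyte, 5 white adipocyte, 8 endothelial, 8 macrophage, 6 erythroid and 3 hepatocyte markers tested passed the threshold. Of the 26 contractile genes 2 did, both lower. All 26 were fitted lower, with a median log2 fold change of −4.50, and 23 of them had an unadjusted p under 0.05, as had 9.41% of all genes with lower values. By mean CPM, the most abundant were *Npr3*, *Cdh5*, *Lyz2*, *Hbb-bs* and *Cyp2e1* in the white adipocyte, endothelial, macrophage, erythroid and hepatocyte lists. *Npr3* was at 231, 60.4 and 114 CPM in the libraries labelled control and at 31.1, 29.7, 46, 61.3 and 35.3 CPM in the others. In edgeR's quasi-likelihood test *Npr3* did not pass the threshold (adjusted p = 0.0676), but it passed with DESeq2's Wald test (adjusted p = 0.000612). In edgeR's test it also passed with all genes unfiltered (0.0447), without A8 (0.0237) and without A8 and A24 (0.038). In the same test it did not pass with the contractile score as a covariate (0.285), without A24 and A25 (0.221) or without A7 (0.189). Without A7, its log2 fold change was −1.1. The 5 tested genes of its list did not move together, 2 being fitted higher (*Retn* at 0.99 and *Agt* at 1.99 on the log2 scale) and 3 lower (*Npr3* at −1.73, *Lep* at −1.22 and *Nnat* at −0.09, which was 0.09 with scaling by total counts). At an unadjusted p under 0.05 there were 4 of them, 2 in each direction, against 7.64% higher and 9.41% lower of all genes. The part of these cells in the values above was not tested.

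For the 3 genes with the smallest unadjusted p, the genes most like them over the 8 libraries were found by Pearson's r of log2 CPM, as a description without a test. *Akt1* was most like *Stk40* (r = 0.993), *Aar2* (0.957) and *Ccdc78* (0.938). *Irs2* was most like *Tapt1* (r = 0.957), *Imp4* (0.945) and *Accs* (0.943), and *Tbc1d4* was most like *Ahcyl1* (r = 0.960), *Polh* (0.955) and *Hcn2* (0.929). These values were picked as the highest among 14851 genes with 8 libraries, which share depth and transcript length effects.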

How the data were processed

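The deposited values are estimated counts of each transcript, not normalized by the authors, in which a read matching more than 1 transcript was split among them. Reads were mapped by the authors in CLC Genomics Workbench, and the program that wrote these estimates is not given in the sources used here. Totals ranged from 17558090 to 67498055 counts per library, so genes of a few CPM were measured least precisely in A24 and A25. Estimates were summed by gene symbol and rounded (79.1% of the sums were within 0.02 of a whole number), filtered with filterByExpr, scaled by TMM (factors 0.763 to 1.2) and tested in R 4.3.3 with edgeR 4.0.16 (quasi-likelihood test, Benjamini-Hochberg adjustment over 14851 genes). DESeq2 1.42.0 and limma 3.58.1 were alternatives. Shares, ratios and scores were tested by exact permutation, two-sided, over the 56 assignments of the libraries, in Python 3.11.15 with numpy 2.4.6 and pandas 2.3.3; figures used matplotlib 3.10.9. Log2 CPM had a prior count of 2. Positions, lengths and 3′UTRs came from GENCODE M21 on GRCm38, which held 103635 of 105129 transcript identifiers without regard to version. The tests were checked on simulated data. No replicate numbers were shared between the groups, so none were paired.

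The 10 genes and the lists were chosen with earlier results of these data known. Named were the 10 genes, *Elavl1*, in each pathway list the genes past the threshold, those with an unadjusted p under 0.05 and the 2 with the highest mean CPM, in each marker list the most abundant gene, and for 3 of the 10 genes the 3 most similar genes; *Ucp1*, the other white adipocyte markers, minor transcripts and the 3′UTR motifs were added after their values were seen. The values of 2 genes that this rule names are not reported here. The alternatives were DESeq2's size factors, total counts, DESeq2's Wald test, limma voom with quality weights, all genes unfiltered, a minimum of 10 counts per library, the contractile score as a covariate, the leading transcript alone, no fold threshold, each library left out, A24 and A25 left out, and A7, A8 and A31 left out. Leaving out A8 and A24 was chosen after seeing the data, as was leaving out each library for the shares, ratios, contractile score and *Elavl1*.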

Additional observations from a re-analysis of the deposited data

Results flagged for a closer look

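Among the 5 libraries labelled *Adipo-HuR-/-*, 47 groups of values were examined for a library far from the others, and 3 held one, where chance gives about 1 in 20. *Tbc1d4* was at 65.1 CPM in A26 and at 45 CPM or less in the other 4. The contractile score, the mean log2 CPM of 26 muscle genes, was 2.84 in A31 and between −1.91 and −1.78 in the other 4. The share of *Slc2a1-201* in *Slc2a1* was 17.1% in A24, against 55.8% to 61.6% in the other 4. Each value is that of 1 animal, and the cause was not tested.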

How the results depend on the processing

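None of the 10 genes passed the threshold under any of the alternatives run, the lowest adjusted p being 0.109 (*Slc2a4* in edgeR's quasi-likelihood fit without A8 and A24, Benjamini-Hochberg adjustment). Over 19 alternatives, 171 of 190 log2 fold changes of these genes kept their direction. *Insr* changed sign to 0.11 with total counts, *Pik3r1* to −0.12 with limma voom, −0.42 with the contractile score as a covariate and −0.04 without A7, A8 and A31, *Slc2a1* to 0.16 with that covariate and 0.35 without A7, A8 and A31, and *Pck1* to −0.02 with limma voom, −0.40 without A7, A8 and A31 and −0.06 without A8 and A24. With 1 library left out, the log2 fold change lay between −0.26 and 0.11 for *Insr*, 0.20 and 0.65 for *Irs1*, 0.48 and 0.98 for *Irs2*, 0.10 and 0.37 for *Tbc1d4*, −0.01 and 0.09 for *Akt2*, −0.15 and 0.25 for *Pik3r1*, −0.53 and 0.36 for *Slc2a1*, 0.03 and 0.60 for *Slc2a4* and −0.14 and 0.16 for *Pck1*. The count over all genes, 105, was 823 with DESeq2's Wald test, 15 with the contractile covariate, 16 with the leading transcript alone, 5 without A24 and A25, 4 without A7, A8 and A31, and 202 without A8 and A24, and lay between 10 (without A26) and 190 (without A12) with 1 library left out. The count over the other pathway genes, 2, was 5 with DESeq2, 1 with the leading transcript alone (*Myo5a*), 0 with the contractile covariate, without A24 and A25 and without A7, A8 and A31, and 0 to 2 with 1 library left out. It was also 2 with total counts, but with *Sh2b2* in place of *Myo5a*. The contractile score differed by −4.29 log2 CPM (exact permutation p = 0.0714), by −4.72 with a prior count of 0.5 (p = 0.0357) and by −6.90 to −2.79 with 1 library left out, at p = 0.0476 without A12, 0.0857 without A31 and 0.19 to 0.229 without each of the other 6; with total counts it was −4.09 (p = 0.107). Differences in mean transcript share, in percentage points, with 1 library left out lay between −0.47 and 1.06 for *Insr-201*, −2.78 and 2.51 for *Akt2-201*, −0.70 and 5.92 for *Pik3r1-202*, −11.28 and 9.07 for *Tbc1d4-208*, −12.34 and 11.77 for *Slc2a1-201* and −0.94 and 0.12 for *Pck1-201*, and that of *Slc2a1-201* was 0.22 among coding transcripts only. *Tbc1d4-208* is not coding, so this alternative was not run for it. The log2 ratio differed by −0.13 to 0.61 for *Irs2* to *Irs1* and by −0.10 to 0.91 for *Slc2a4* to *Slc2a1* with 1 library left out. The cause of these changes was not tested.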
